A study of Mus musculus with 4 samples.

Results

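The Pramel genes described here are Pramel1, Pramel3, Pramel4, Pramel5, Pramel6 and Pramel7, 6 of the 55353 symbols of the deposited table. They were chosen by name, with earlier results of these data known. RNA was measured by strand-specific sequencing, after depletion of ribosomal RNA, in mouse E14 embryonic stem cells of the strain labelled 12910la, a feeder-free line grown here on gelatin in serum with leukaemia inhibitory factor (LIF). Of the 4 libraries, 2 came from wild-type cells (control 1 and control 2) and 2 from cells targeted at Ssrp1 with Cas9 and a guide RNA (knockout 1 and knockout 2). Ssrp1 encodes a subunit of FACT, a histone chaperone that loosens nucleosomes for polymerases. Whether the 2 libraries of a group are separate cultures, or the targeted ones separate clones, is left unsaid, so p-values reflect the scatter between libraries alone, possibly technical. The treatment text also mentions an empty vector and puromycin for wild-type cells, without saying whether these controls received them.

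PRAME-like proteins are built from leucine-rich repeats, and the family has expanded in rodents into many copies that are mostly expressed in testis, oocytes and the early embryo. The human founder, PRAME, is a cancer-testis antigen and can serve as a substrate receptor of a CUL2 ubiquitin ligase. Pramel7 is known from the inner cell mass, where it supports naive pluripotency and promotes breakdown of UHRF1, the factor that brings the maintenance DNA methyltransferase to newly replicated DNA. Pramel7 and its neighbour Pramel6 have been described as acting downstream of LIF and STAT3, and Pramel1 is known as a male germ cell gene.

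Pramel7 and Pramel6 were close to silent in the controls and were called higher in the knockout-labelled libraries, whereas Pramel1 was detected at about the same level in all 4 libraries. Pramel3 had single-digit counts in the knockout-labelled libraries only, and Pramel4 and Pramel5 had no count in any library. Thus 2 of the 6 genes were called higher, 0 were called lower, 1 did not pass the test and 3 were below the filter on low counts. Over all 17482 genes tested with edgeR's quasi-likelihood test, 16.5% were called higher and 17.2% lower, with the threshold at an adjusted p of 0.05. Rises made up 49% of the calls, or 63.7% when libraries were scaled by size alone, which moved the median log2 fold change of all genes from 0.0035 to 0.087. Pramel6 and Pramel7 passed the filter only through the knockout-labelled libraries, which left no room for a call of lower.

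Total gene counts were between 22611434 and 25344190 per library. The targeted transcript did not check the labels: Ssrp1 was at 294 ± 16.6 CPM (counts scaled by library size and TMM; SD, n = 2) in controls and 316 ± 15.4 in the knockout-labelled libraries (log2 fold change 0.11 ± 0.06, SE, edgeR adjusted p 0.23). A small Cas9 lesion can leave a transcript in place, so the second group is called the knockout-labelled libraries throughout. The call depended on the setting, with an adjusted p of 0.031 with scaling by library size alone and 0.011 without knockout 1. Its partner Supt16 was at 891 ± 12.8 and 1020 ± 54.1 CPM (adjusted p 0.018 by edgeR), a call lost without control 1 (0.24) or control 2 (0.14). Gm26917 and Gm42418, which hold ribosomal RNA sequence, took 9.72% and 10.3% of control counts, but 6.3% and 4.64% of those of the knockout-labelled libraries, and their part in the results was not tested beyond rescaling without them, which left the calls of Pramel6 and Pramel7 in place. In a bulk sample, more cells with a transcript and more transcript per cell cannot be told apart.

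Pramel7 lies on chromosome 2 (87489087 to 87497093, minus strand, mm10) and Pramel6 beside it (87506565 to 87510872, plus strand), in GENCODE M21. The pair point away from each other, with 9.5 kb between their annotated starts and no other annotated gene between them. The promoter windows of the 3 expressed Pramel genes are shown because these genes differ in their control level. They run from 250 bases before to 50 bases after the RefSeq start, are read 5′ to 3′ on the gene's strand (RefSeq, GRCm38.p6), and have every CpG dinucleotide in capitals.
Pramel7 (chr2:87492369-87492668, minus strand): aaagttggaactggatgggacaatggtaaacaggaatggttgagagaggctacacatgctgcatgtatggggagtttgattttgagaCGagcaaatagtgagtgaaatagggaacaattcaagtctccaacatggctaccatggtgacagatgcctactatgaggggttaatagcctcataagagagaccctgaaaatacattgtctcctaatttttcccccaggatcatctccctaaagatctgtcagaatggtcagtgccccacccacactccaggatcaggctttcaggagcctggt
Pramel6 (chr2:87506315-87506614, plus strand): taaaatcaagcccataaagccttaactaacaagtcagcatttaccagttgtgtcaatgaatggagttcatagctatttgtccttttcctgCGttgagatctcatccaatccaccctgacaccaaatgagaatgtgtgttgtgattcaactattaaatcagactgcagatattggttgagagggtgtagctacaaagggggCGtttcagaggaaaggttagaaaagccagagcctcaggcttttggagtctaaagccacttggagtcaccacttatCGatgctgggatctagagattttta
Pramel1 (chr4:143394191-143394490, plus strand): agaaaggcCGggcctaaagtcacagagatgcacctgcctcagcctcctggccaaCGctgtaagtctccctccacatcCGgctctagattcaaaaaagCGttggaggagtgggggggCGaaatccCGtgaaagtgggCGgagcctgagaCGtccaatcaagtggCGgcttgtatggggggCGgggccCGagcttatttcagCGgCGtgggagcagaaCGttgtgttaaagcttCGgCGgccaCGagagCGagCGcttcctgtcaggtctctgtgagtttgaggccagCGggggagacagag
CpG numbers were counted after expression values had been seen. The Pramel7 window held 1 CpG and the Pramel6 window 3, against 20 in the Pramel1 window. Over all 32851 promoter windows of the same length the median was 7 CpG, 31.4% held at most 3 and 26.5% held at least 20. The RefSeq and GENCODE starts of Pramel7 differ: the window lies inside the GENCODE gene, whose start on the minus strand is at 87497093. The distance of 9.5 kb was taken from that GENCODE start. Gene counts do not show which start was used, so the CpG number of this window may not describe the promoter in use.

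Pramel7 had 2 and 0 counts in control 1 and control 2, and 97 and 131 counts in knockout 1 and knockout 2. Both knockout-labelled libraries were far above both controls, and knockout 2 was the higher of them. In normalised units this was 0.0453 ± 0.0641 CPM in controls and 4.83 ± 0.959 CPM in the knockout-labelled libraries (SD, n = 2). With 2 control counts in all, the ratio of the scaled sums was 112, with an exact 95% interval of 30.8 to 934 that covers counting error only. The fitted log2 fold change was 6.64 ± 0.56 (SE), with an adjusted p of 2.2e-08 by edgeR. Its size rests on those 2 control reads: it was 9.85 without control 1, a value set by the prior count because no control count was left, and 5.65 without control 2, and the call held in both cases.

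Pramel6 followed the same pattern at a lower level. Its control counts were 2 and 1, and its counts in knockout 1 and 2 were 49 and 74, again without overlap and with knockout 2 the higher. The means were 0.0658 ± 0.0352 and 2.6 ± 0.717 CPM (SD, n = 2), a ratio of 40.5 (95% counting interval 13.5 to 199). The log2 fold change was 5.22 ± 0.61 (SE, edgeR adjusted p 1.6e-06), with 5.82 without control 1 and 4.76 without control 2. That every knockout-labelled library lay above every control held for 33.3% of all tested genes, so the absence of overlap alone sets neither gene apart. With a stricter filter (5 CPM in 2 libraries) neither gene was tested, because both stayed under that level.

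Pramel6 and Pramel7 share next to no exact sequence with other annotated transcripts, a check added after the values were seen. None of the 100-base stretches of the longest Pramel6 and Pramel7 transcripts occurs in the transcripts of another gene, and of the 50-base stretches 0% for Pramel6 and 0.442% for Pramel7 do. The longest stretch of similarity between the pair covered 280 aligned bases at 76.8% identity, in transcripts of 1781 and 1861 bases.

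Pramel1, on chromosome 4 (143394428 to 143400160, plus strand), had control counts of 121 and 139, and counts of 156 and 128 in knockout 1 and 2. Knockout 2 lay between the controls on the scale of raw counts, and below both after scaling (5.38 CPM, against 5.49 and 5.68), while knockout 1 was the highest at 6.67 CPM. The means were 5.58 ± 0.135 and 6.03 ± 0.916 CPM (SD, n = 2). The log2 fold change was 0.11 ± 0.19 (SE, edgeR adjusted p 0.7), and -0.05 without knockout 1. The ratio of summed counts was 1.08 with a 95% counting interval of 0.908 to 1.28, so a change of the size seen for Pramel6 or Pramel7 lies far outside it. None of the 50-base stretches of Pramel1 is shared with another gene.

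Pramel3, on chromosome X (135302307 to 135312652, plus strand), had 0 counts in both controls and 6 and 1 in knockout 1 and 2. Against a floor of 3 counts over the controls this was 2.3-fold higher, and nearly all of it came from knockout 1. That fold takes the 7 knockout counts as exact and so is not a lower bound. Fitted without a filter, its adjusted p was 0.23 by edgeR. Pramel4 (chromosome 4, 144059126 to 144069327) and Pramel5 (144270633 to 144280488) had 0 counts in each library, which allows up to 3 counts, or between 0.118 and 0.133 CPM per library. Pramel3 and Pramel4 share much of their sequence with other genes: 62.1% of the 100-base stretches of Pramel3 occur in other genes' transcripts (52.4% in Gm15023), 87.1% of those of Pramel4 (86.9% in Gm13102) and 4.05% of those of Pramel5 (in Pramel4). Gm13102 also had no count. How reads with several matches were counted is not given in the sources used here, and its part in these zeros was not tested.

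**Figure D1:**
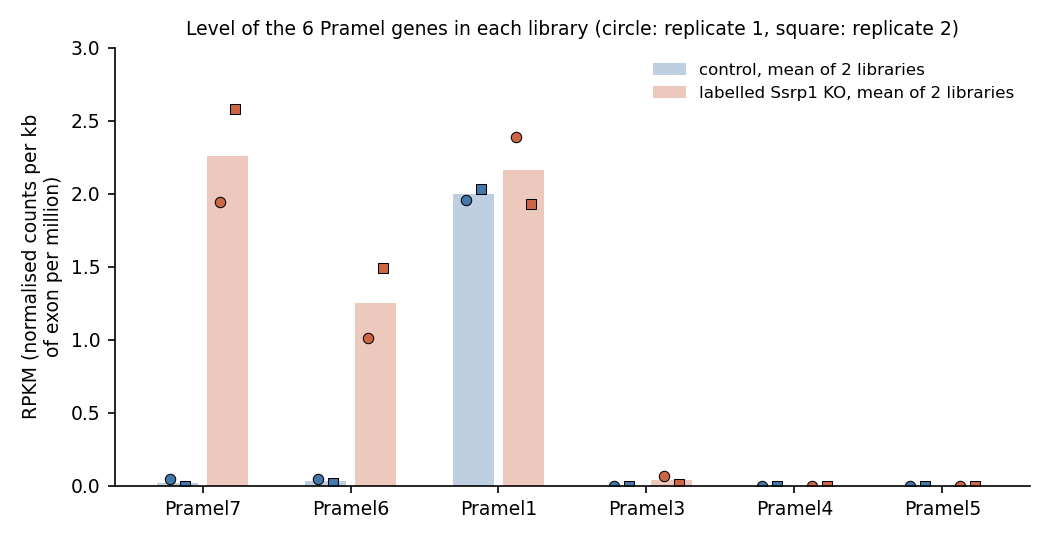
Level of each Pramel gene, as CPM per kilobase of exon (RPKM, vertical axis), in the 4 libraries. Bars are means of 2 libraries and points are single libraries. Pramel7 and Pramel6 stand near 0 in the controls and at 1.94 and 2.58 and at 1.01 and 1.49 RPKM in the knockout-labelled libraries, while Pramel1 stands between 1.93 and 2.39 in all 4.

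Levels of different genes were compared per length, in RPKM (CPM per kilobase of the union of annotated exons). In the controls Pramel1 was first at 2 ± 0.0481 RPKM, followed by Pramel6 at 0.0316 ± 0.0169 and Pramel7 at 0.0212 ± 0.0301, which did not differ beyond their spread. In the knockout-labelled libraries Pramel7 stood at 2.26 ± 0.449 RPKM, Pramel1 at 2.16 ± 0.328 and Pramel6 at 1.25 ± 0.344. The order of Pramel7 and Pramel1 was not settled. The per-length ratio of Pramel7 to Pramel1 was 0.814 (95% counting interval 0.626 to 1.06) in knockout 1, where the interval includes equality. In knockout 2 it was 1.34 (1.04 to 1.73). Pramel7 was above Pramel6 in both, at a ratio of 1.93 (1.36 to 2.78) and 1.73 (1.29 to 2.33). Pramel1 made up 96.8% and 99.3% of the counts of the 6 genes in the controls, and 50.6% and 38.3% in the knockout-labelled libraries. Counts of the other 5 genes together went from 4 and 1 to 152 and 206.

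Few symbols showed such a gap. At most 3 counts in the controls together and at least 40 in each knockout-labelled library, limits chosen after the values were seen, were found for 42 symbols of the whole table, and the reverse for 0. The 42 included Pramel6 and Pramel7 and, of the rest of the family, Gm12794, Gm13119 and Pramef25. They also included 8 of the 25 markers of the 2-cell-like state that were measured, namely Zscan4a, Zscan4b, Zscan4e, Usp17la, Usp17lb, Usp17lc, Usp17le and Gm20767. By the root mean square difference of centred log2(CPM + 0.1) over the 4 libraries, the 3 named genes nearest to Pramel7 were Tmem92 (0.322), Zscan4f (0.33) and Zscan4b (0.392), out of 12488 compared. Tmem92, a transmembrane protein gene, had control counts of 2 and 1, and counts of 77 and 109 in knockout 1 and 2. Zscan4f, a zinc finger gene that marks the 2-cell-like state, had 3 and 1 counts and then 215 and 168. The nearest to Pramel6 were Tmem92 (0.295), AA623943 (0.314) and Ddr2 (0.434), a collagen receptor kinase gene at 0.721 ± 0.251 and 9.76 ± 1.83 CPM. Pramel1 was nearest to Yipf6 (0.009), Rnf11 (0.014) and Coa6 (0.02), none of them called, and 8041 genes lay within 0.25 of it, so that its likeness singles out nothing. With 4 libraries this measure mostly reads the size of the difference between groups.

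The rest of the family was taken as every symbol beginning with Pramel, Pramef or Oog, or matching by name or synonym a RefSeq gene so named, which gave 34 further symbols. RefSeq lists 52 genes of the family, of which 39 matched a symbol. The rule leaves out close copies under other names, such as Gm13102, which had no count. A count was seen for 7 of the 34 in the controls and for 16 in the knockout-labelled libraries, for 9 of them in the latter only and for 0 in the controls only. For comparison, 29811 symbols of the table had no count in the controls, and 10.7% of these had one in the knockout-labelled libraries, while 6.05% of the 28349 symbols without a count in the knockout-labelled libraries had one in the controls. Of the 34 symbols, 9 passed the filter, 7 were called higher and 0 lower, and 18 had no count at all. The shares of those tested, 77.8% higher and 0% lower, stood against 16.5% and 17.2% over all genes tested. Most of the 7 passed the filter only through the knockout-labelled libraries, which left those no room for a call of lower.

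Among the further symbols, the oocyte genes Oog1, Oog2 and Oog3 had no count in any library and Oog4 had 1, in knockout 2. Gm13128 (Pramel30 in RefSeq) had control counts of 27 and 15, and counts of 227 and 206 in knockout 1 and 2. Its log2 fold change was 3.33 ± 0.27 (SE, edgeR adjusted p 9.6e-09), and its groups were far apart. Gm12794 (Pramel19) had 0 control counts and 84 and 101 in the knockout-labelled libraries. Against a floor of 3 counts over the controls this was 60.8-fold higher, with the knockout counts taken as exact. Gm13119 (Pramel31) likewise had 0 control counts and 54 in each knockout-labelled library, 35.5-fold higher by the same reckoning. Pramef25 (Pramel16) had 0 and 1 counts and then 74 and 53, a ratio of 125 with a 95% counting interval of 22.1 to 4990. B020004J07Rik (Pramel17) had 1 and 0 counts and then 24 and 27, a ratio of 50.3 (8.63 to 2030).

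Some of these symbols are near copies of each other, so reads may be shared among them. Of the 100-base stretches of Gm13128, 56.6% occur in Pramef17, which had 4 counts in each control, 39 and 31 in the knockout-labelled libraries and was chosen after its values were seen. For Pramef25, Gm12794 and Gm13119 the share found in other genes' transcripts was 26.5%, 37.8% and 14%, and for B020004J07Rik 5.11%.

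The family members with the most counts had small differences. Pramef12 (Pramel13), which is needed for the upkeep of spermatogonia, had control counts of 982 and 1143, and counts of 1561 and 1425 in knockout 1 and 2. It rose from 45.6 ± 1.52 to 63.3 ± 4.88 CPM (log2 fold change 0.47 ± 0.08, SE, edgeR adjusted p 0.00015). Pramef8 (Pramel12) had 721 and 737 counts and then 826 and 810, or 31.4 ± 1.83 and 34.7 ± 0.917 CPM (log2 fold change 0.14 ± 0.09, adjusted p 0.25). Neither shares a 50-base stretch with another gene. Pramef12os, annotated antisense to Pramef12, did not pass the test (3 and 10, then 16 and 15 counts, edgeR adjusted p 0.14). Whether the counting used strand is not given, so its reads and those of Pramef12 cannot be told apart where they overlap.

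**Figure D2:**
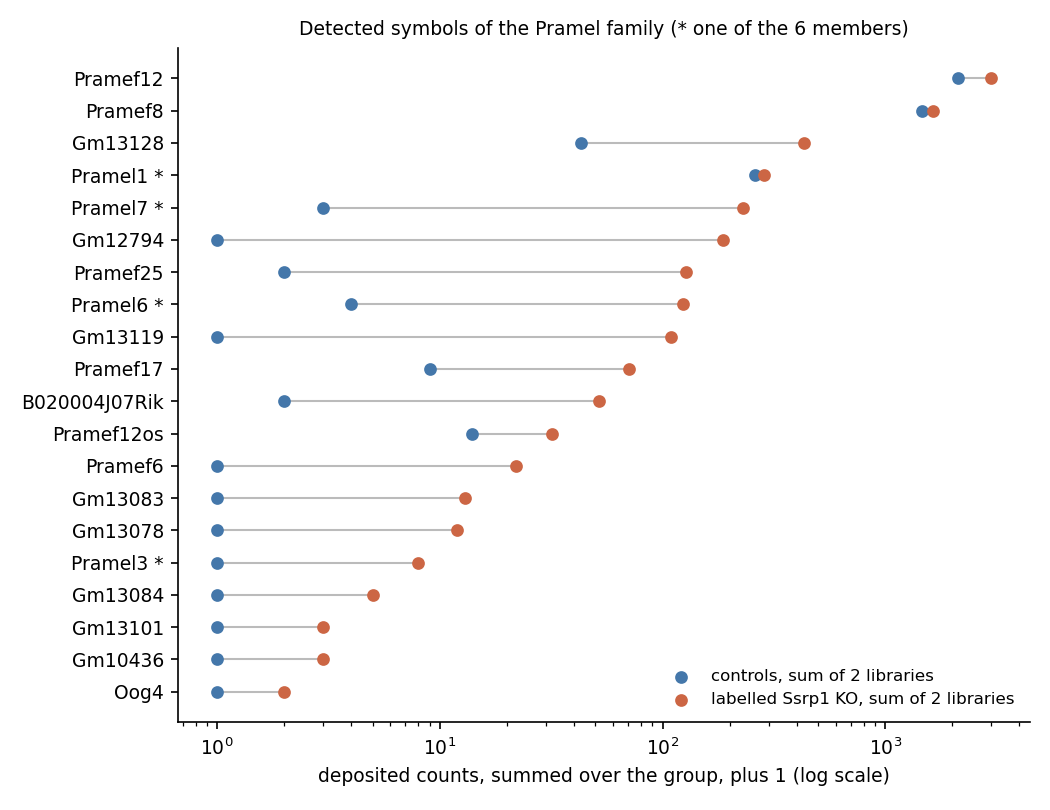
Deposited counts plus 1, summed over the 2 libraries of each group (horizontal axis, logarithmic), for every symbol of the Pramel family with a count. The gap between the groups is wide for Pramel7, Pramel6, Gm12794, Pramef25 and Gm13119 and narrow for Pramel1, Pramef8 and Pramef12, and 10 symbols sit at 0 counts in the controls.

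Genes around the 6 were read in the same way, within 500 kb. Pramel6 and Pramel7 lie in an olfactory receptor cluster: of the 81 other symbols there, 63 are Olfr genes, which encode odorant receptors. Of the 81, 73 had no count in any library and 0 passed the filter, so none could be tested. Their summed counts came to 15 and 14 for the controls, against 34 and 29 for the knockout-labelled libraries, and the most counted of them had 28 over all 4 libraries. Pramel7 alone had 228 counts in the knockout-labelled libraries and Pramel6 had 123.

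The chromosome 4 location of Pramel1, Pramel4 and Pramel5 held 63 other symbols, 21 of them of the family by the naming rule above, which leaves out Gm13102. Of these 63, 10 were tested, of which 6 were called higher (3 with the stricter filter) and 0 lower. The share called higher was 60%, against 16.5% over all genes tested, where 17.2% were called lower. Pramef25, Gm13119 and Pramef17 passed the filter only through the knockout-labelled libraries, which left no room for a call of lower. Apart from Prdm2, those called higher were family symbols already counted above. Genes with large and small differences stood side by side. Pramef8, 12.3 kb from Pramel1, was not called, while Gm13128, 49.8 kb from the uncounted Pramel5, Pramef25 (log2 fold change 6.66 ± 0.73) and Gm13119 were. Of the 3 tested genes there outside the family, Prdm2, which encodes a histone methyltransferase-like zinc finger protein, was called higher (86.9 ± 1.51 and 120 ± 8.44 CPM) and Pdpn and Gm13123 were not (edgeR adjusted p 0.62 and 0.95). Prdm2, Pdpn and Gm13123 were named after their values were seen. Around Pramel3, 8 of 37 other symbols were tested, of which 1 was called higher and 2 lower. The 1 called higher, Nxf2, had 3 and 1 control counts and passed the filter only through the knockout-labelled libraries. Armcx2 was at 87.9 ± 2.17 and 41.3 ± 1.99 CPM, Gprasp1 at 107 ± 1.33 and 76.3 ± 0.722, and Nxf2, a testis-expressed RNA export factor gene, at 0.0884 ± 0.0673 and 0.827 ± 0.1. The call of Nxf2 was lost without control 2 (edgeR adjusted p 0.068).

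**Figure D3:**
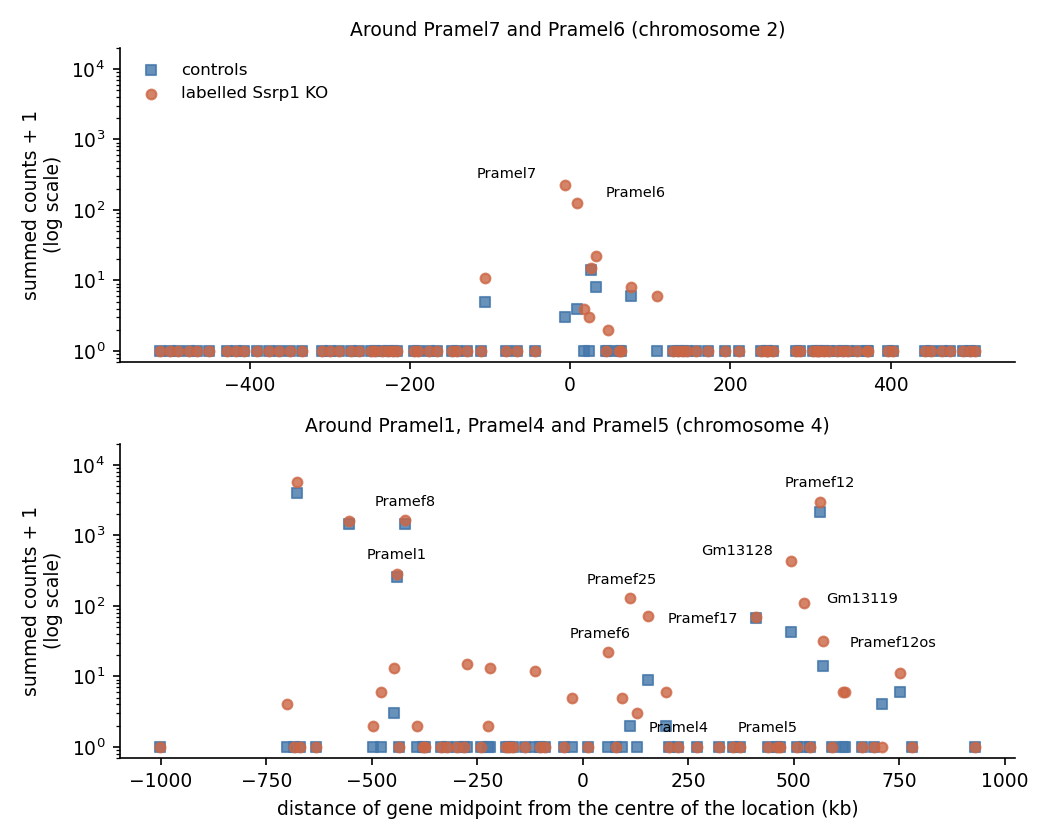
Summed counts plus 1 in each group (vertical axis, logarithmic) of every annotated symbol within 500 kb of a Pramel gene, against the distance of the gene's midpoint from the centre of the location in kb. On chromosome 2, Pramel7 and Pramel6 stand above neighbours that are mostly at 0, and on chromosome 4 family symbols with wide and narrow gaps between the groups are interspersed.

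A promoter window was found for 32 of the 40 family symbols, the 6 Pramel genes included and Pramef8 not. That of Pramel7 lies inside its GENCODE gene and may not be the promoter in use. In 28 of them the window held at most 3 CpG. None of these 28 had 10 or more counts in the controls together, and 10 had so many in the knockout-labelled libraries. Both limits were set with the values known. Pramef17, with 2 CpG, had 8 control counts, just under the limit, and is a near copy of Gm13128. How often genes outside the family with at most 3 CpG reach 10 control counts was not counted. The other 4 were Pramel1 with 20 CpG, Pramel3 with 9, Pramef12 with 7 and Gm13128 with 4, of which all but Pramel3 had 10 or more counts in the controls. These are counts over related genes that share sequence, and methylation was not measured. The windows of the 6 Pramel genes held none of 4 motifs searched on both strands, which were the TATA box TATAAA (in 13.6% of all windows), the STAT site TTCNNNGAA (8.3%), the E-box CACGTG (7.15%) and the octamer ATGCAAAT (1.74%). In the further family symbols TATAAA was found in 9 windows, at any position. Among them was that of Gm13119, with the match at position -68 from the start, while most of the others had no count in any library.

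**Figure D4:**
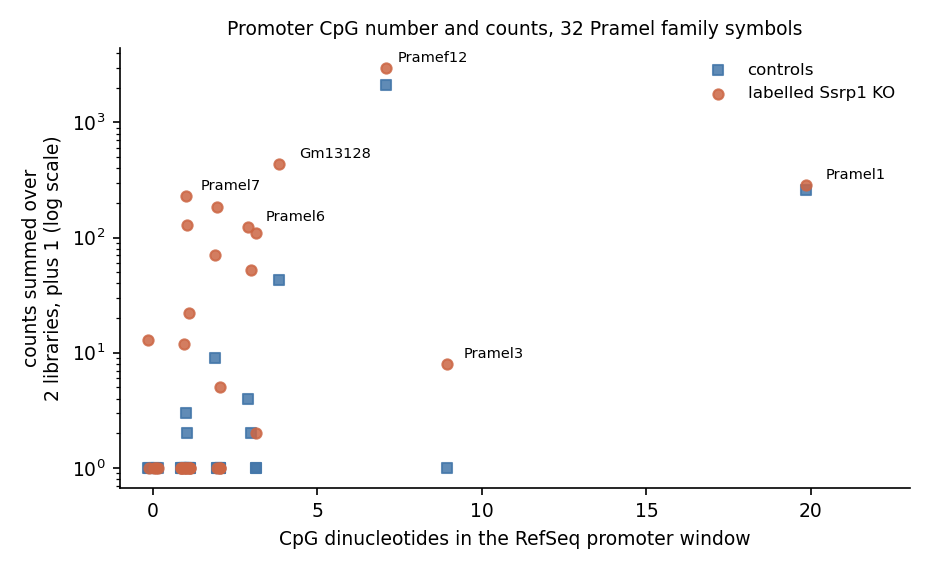
Number of CpG dinucleotides in the RefSeq promoter window (horizontal axis, points nudged sideways to separate them) against summed counts plus 1 (vertical axis, logarithmic) for 32 symbols of the Pramel family. Controls (squares) reach 10 counts only at 4 CpG or more, while the knockout-labelled libraries (circles) also do so at 0 to 3 CpG. Both limits were set with the values known, only 4 symbols hold more than 3 CpG, and genes outside the family were not counted.

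Genes of the processes in which PRAME-like proteins are known to act were read from lists chosen for their function. Of 21 UHRF1 and DNA methylation genes, all tested, 6 were called higher and 9 lower (median log2 fold change -0.16, against 0.0035 over all genes tested). These shares, 28.6% and 42.9%, stood against 16.5% and 17.2% over all genes tested. Uhrf1, the protein target described for Pramel7, had control counts of 11732 and 13052, and counts of 9925 and 10893 in knockout 1 and 2. It fell from 533 ± 0.761 to 441 ± 23.5 CPM (log2 fold change -0.27 ± 0.06, SE, edgeR adjusted p 0.0017) and was named for that role after its values were seen. These are transcript levels and say nothing of UHRF1 protein. The new-methylation enzyme gene Dnmt3b rose from 98.1 ± 7.64 to 245 ± 17.7 CPM, and Tet1, which oxidises methylated cytosine, fell from 1710 ± 1.03 to 1120 ± 93.1 CPM. Lig1, which seals newly copied DNA strands, fell from 298 ± 8.68 to 206 ± 15.5 CPM. With scaling by library size alone, 6 of the 21 were higher and 6 lower.

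Of 19 genes of CUL2 ubiquitin ligases, all tested, 3 were called higher, 1 lower and 15 not (median 0.06). The share called higher, 15.8%, was near the 16.5% over all genes tested, and the share called lower, 5.26%, was below the 17.2% over all genes. Cul2 itself was at 136 ± 1.08 and 152 ± 3.62 CPM and missed the threshold (edgeR adjusted p 0.067), but was called with library size alone (0.0066), with the stricter filter (0.032) and without knockout 2 (0.017); it was named after its values were seen. Nedd8, the ubiquitin-like activator of cullins, rose from 52.2 ± 0.455 to 69.2 ± 2.28 CPM, and the adaptor gene Eloc from 30 ± 1.34 to 41.2 ± 7.44 CPM. The substrate receptor gene Klhdc2 fell from 44.7 ± 1.95 to 30.6 ± 1.8 CPM. The counts moved to 6 higher and 1 lower with library size alone, and to 5 higher and 3 lower without knockout 1.

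Of 22 LIF-STAT3 pathway genes, all tested, 5 were called higher and 10 lower (median -0.08). These shares, 22.7% and 45.5%, stood against 16.5% and 17.2% over all genes tested. Stat3, named for its role after its values were seen, fell from 145 ± 2.87 to 106 ± 5.92 CPM (log2 fold change -0.45 ± 0.07, SE, edgeR adjusted p 3e-05). The transcription factor gene Tfcp2l1 fell from 825 ± 14.8 to 539 ± 24.4 CPM, the kinase gene Pim3 from 136 ± 2.48 to 91.1 ± 2.86 and the kinase gene Tyk2 from 47.1 ± 1.32 to 28.4 ± 1.41. The 5 called higher, named after their values were seen, were the cytokine gene Lif (4.65 ± 0.933 and 8.19 ± 0.463 CPM), the transcription factor gene Myc (7.37 ± 0.0281 and 13.5 ± 1.06), the kinase gene Jak1 and the phosphatase genes Ptpn11 and Ptpn6. The part of this pathway in the rise of Pramel6 and Pramel7 was not tested. Scaled by library size, 6 were called higher and 7 lower, and without control 2 the number called higher was 3.

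Markers of the cell types that express PRAME-like genes, or that the culture could hold, were summed in each library. All 12 embryonic stem cell markers were detected, at 5590 and 5720 CPM together in the controls and 4570 and 4450 CPM in the knockout-labelled libraries, with 3 called higher and 7 lower; the number called higher was 1 by DESeq2, 0 without control 1 and 1 without control 2. The shares called higher and lower, 25% and 58.3%, stood against 16.5% and 17.2% over all genes tested. Pou5f1 was at 408 ± 10.4 and 316 ± 8.54 CPM, Fgf4 at 209 ± 1.32 and 107 ± 4.44 and Dppa5a at 1370 ± 50.8 and 901 ± 44.9. These were the markers with the smallest adjusted p, all called lower, and the 3 called higher are not among them. Apart from Eif1a and Dppa3, markers of the 2-cell-like state were close to silent in the controls, as Pramel6 and Pramel7 were. Without Eif1a, a translation initiation factor gene that was already at 190 and 195 CPM in the controls, the other 24 summed to 3.31 and 3.72 CPM in the controls and to 166 and 163 in the knockout-labelled libraries. With Eif1a, left out after its values were seen, the sums were 193 and 198, then 423 and 389 CPM. Of the 25 such markers measured, 12 had no control count, and all 20 tested were called higher, 13 with the stricter filter. Over all genes tested 16.5% were called higher. Markers with no or few control counts, such as Zscan4c with 5 and 4, could pass either filter only through the knockout-labelled libraries. That left them no room for a call of lower, and the stricter filter is no separate check of them. Gm21761, a predicted gene model in the list, was at 0.15 ± 0.0193 and 31.3 ± 5.4 CPM, Zscan4c at 0.195 ± 0.0448 and 18.9 ± 2.25, and the deubiquitinase gene Usp17le at 0.0635 ± 0.0257 and 16.9 ± 2.55. The part of such cells in the rise of Pramel6 and Pramel7 was not tested.

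Of 16 oocyte markers 7 were tested, 4 called higher and 1 lower, with sums of 99.3 and 95.2 CPM in controls and 84.1 and 76.1 in the knockout-labelled libraries, and with Nlrp5, Oosp1 and Zar1 at 0 in all libraries. The number called higher was 2 by DESeq2, with the stricter filter, without control 2 or without knockout 1. Khdc3 was at 2.84 ± 0.611 and 6.28 ± 0.799 CPM, Zp3 at 1.76 ± 0.0696 and 4.22 ± 0.277, and Ooep at 79.5 ± 1.31 and 50.6 ± 2.17. Of 16 spermatogenic markers 12 were tested, 5 called higher and 2 lower (3 and 1 without control 1, and 1 lower without control 2), with sums of 185 and 171 CPM against 175 and 156, and with the sperm chromatin genes Tnp1, Prm1 and Prm2 at 0 throughout. Hormad1, which acts on meiotic chromosome axes, was at 8.56 ± 0.784 and 21.8 ± 4.17 CPM, Dazl, a germ cell RNA-binding factor, at 8.18 ± 1.58 and 18.1 ± 2.12, and Tex14, of germ cell bridges, at 82.9 ± 8.59 and 45 ± 3.69, all called. The shares called higher and lower were 57.1% and 14.3% for tested oocyte markers, and 41.7% and 16.7% for tested spermatogenic markers. Over all genes tested they were 16.5% and 17.2%, so the shares called lower were near that level. The part of these germ cell markers in the Pramel results was not tested.

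Among other lineages, 10 of 15 tested primitive endoderm markers were called higher and 1 lower, with sums of 858 and 829 CPM in controls and 1010 and 1030 in the knockout-labelled libraries, and Ttr and Afp at 0. Col4a1, a basement membrane collagen, was at 15.1 ± 0.768 and 34.2 ± 2.95 CPM and Dab2, which acts in endocytosis, at 2.61 ± 0.345 and 10.8 ± 1.72. Both were named for a small adjusted p and were called higher. The 1 primitive endoderm marker called lower and the 4 not called are not among them. Of 8 tested trophoblast markers 4 were called higher and 0 lower (88.9 and 89.3 CPM, then 139 and 149), with Prl3d1 and Tpbpa at 0, and Tfap2c, a transcription factor gene, rose from 52.7 ± 1.56 to 92.7 ± 2.37 CPM. Of 6 tested neural markers 1 was called higher and 3 lower (159 and 166 CPM, then 89.3 and 93.3), with Dcx and Olig2 at 0; without a filter on low counts 2 were called higher. Ncam1, a cell adhesion molecule, was at 84.5 ± 3.21 and 16 ± 2.02 CPM. Nes, the 1 called higher, was at 12 ± 0.937 and 24.1 ± 0.626 CPM. Of 6 tested fibroblast and feeder markers 3 were called higher and 0 lower (35.4 and 34.7 CPM, then 39.8 and 46.1), with Postn, Lum, Dcn and Prrx1 at 0 throughout. With the stricter filter 1 of these was called higher. The shares called higher were 66.7% for primitive endoderm, 50% for trophoblast, 16.7% for neural and 50% for fibroblast and feeder markers. Those called lower were 6.67%, 0%, 50% and 0%. Over all genes tested the shares were 16.5% and 17.2%, so the neural share called higher was near that level.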

How the data were processed

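RNA of 4 libraries was compared, 2 of control and 2 of Ssrp1-targeted E14 cells. The authors deposited 1 table of raw counts, whole numbers for each gene symbol, with no normalization. The submitters' processing notes name cutadapt, HISAT2 and featureCounts with mm10; for versions, annotation, strand setting and reads with several matches, nothing is given in the sources used here. The table's columns read OK where sample titles read KO and were matched by gene, role and number. Unmapped columns numbered 0.

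In R 4.3.3, edgeR 4.0.16 removed low genes (filterByExpr with a count minimum of 10 and a total of 15), scaled libraries by TMM and tested the rest with the quasi-likelihood F test (2-sided, prior count 0.125, 2 residual degrees of freedom, Benjamini-Hochberg over all genes tested, threshold 0.05). Group sizes of 2 allow no exact permutation p below 0.333, so none is given. Totals of 22611434 to 25344190 counts make 3 counts worth 0.118 to 0.133 CPM. CPM and RPKM were computed here from the deposited counts, with lengths and positions from GENCODE M21. Intervals are exact (Clopper-Pearson, 95%) and cover counting error only, since reads carry no molecular identifiers. Standard errors of fold changes are the size of the log2 value over the square root of F. The Pramel genes, the gene lists and the naming rule were chosen with earlier results of these data known. The rule named the 6 genes, Ssrp1 and Supt16, the 5 further family symbols with the smallest adjusted p and those with over 100 counts, up to 3 genes per list and location, and the 3 genes nearest each tested Pramel gene; predicted models were left out of the last. The scripts were tested on simulated data. Alternatives were other scalings, DESeq2 1.42.0, other filters, a replicate block, leaving out each library, and transcript length. Replicates differed beyond sampling noise (chi-square per degree of freedom 3.37 for controls, 11.5 for the other group).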

Additional observations from a re-analysis of the deposited data

How the results depend on the processing

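Pramel6 and Pramel7 were called higher in each of the 10 alternatives in which they were tested, with log2 fold changes of 4.76 to 5.82 and 5.65 to 9.85, in both cases the range over leaving out single libraries. Under the stricter filter (5 CPM in 2 libraries) 0 Pramel genes and 2 further family symbols were called higher, because fewer were tested; otherwise these numbers were 2 and 7 or 8. Pramel1 was not called under any of 11 alternatives (-0.05 to 0.26) and reversed to -0.05 without knockout 1, as did the genes nearest to it, Yipf6 (-0.03), Rnf11 (-0.08) and Coa6 (-0.1); without knockout 2 the last 2 were at 0.23 and 0.25. Over all genes, 1915 to 2995 were called higher and 2105 to 3244 lower when single libraries were left out, the lowest number higher without control 1. A replicate block gave 5.22 for Pramel6, 6.64 for Pramel7 and 0.1 for Pramel1, and changed no call of a Pramel gene. With it 3072 genes were higher and 3216 lower. Deviations of same-numbered libraries correlated at 0.0238 over 10817 genes. This shows no pairing common to these genes, but cannot exclude one that touches only some of them. RPKM by the longest transcript stayed within 1 SD for the 7 values compared. Depth limits what can be said of Pramel3, Pramel4 and Pramel5, and of the size of the folds of Pramel6 and Pramel7, which rest on 3 and 2 control counts.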
